A study of Mus musculus with 12 samples.

Results

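A set of 10 genes of serine, glycine and folate one-carbon metabolism was followed in mouse bone marrow-derived macrophages, the adherent phagocytes grown from marrow, after depletion of MOF. MOF, encoded by Kat8, is a lysine acetyltransferase best known for acetylating histone H4. The genes are Phgdh, Psat1, Psph, Shmt1, Shmt2, Mthfd1, Mthfd2, Mthfd1l, Gcsh and Amt, taken by gene name from the deposited tables. All 10 were present among 14264 genes. They were chosen by their pathway and because Phgdh and Gcsh had low knockdown values in different LPS states, so their values are a description. Where a gene of the set is said to be called, this reports that its adjusted p lies below the threshold, and no such call is evidence independent of the choice. The 4 groups were wild-type macrophages that carried either shCTRL, a control short hairpin, or shMOF, a hairpin that targets MOF. They were left unstimulated or given lipopolysaccharide (LPS), the bacterial ligand of the receptor TLR4, at 100 ng/ml for 3 h. Each group has 3 libraries. The labels give no mouse strain or age, no number of hairpins and no rescue, so direct effects of the hairpin on other transcripts and loss of MOF cannot be told apart. They do not say that the libraries came from separate animals or cultures, so the standard errors (SE) and p-values measure only the spread between these samples.

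The pathway is a short chain that feeds several others. PHGDH, PSAT1 and PSPH make serine from the glycolytic intermediate 3-phosphoglycerate. Serine hydroxymethyltransferases then split serine into glycine and a one-carbon unit carried by folate, in the cytosol through SHMT1 and in mitochondria through SHMT2. Mitochondrial MTHFD2 and MTHFD1L convert that unit to formate, and cytosolic MTHFD1 takes formate up again for purines, thymidylate and methyl groups. The glycine cleavage system, in which GCSH is the lipoate-bearing shuttle and AMT the aminomethyltransferase, breaks glycine down in mitochondria. In activated macrophages serine is known as a source of glycine for glutathione and of one-carbon units for methylation.

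The comparisons address which transcripts differ between shMOF and shCTRL cells at rest and under LPS. Each of the authors' deposited tables holds 1 comparison of shMOF with shCTRL, with 1 mean normalized count per gene shared by both tables, and no value per library. Levels in single samples and overlap between groups therefore cannot be shown, and library depth is unknown. Kat8, on chr7:127912516-127925837 of GRCm38 (plus strand), was at 0.210 of the control level unstimulated and 0.201 under LPS, from log2 fold changes in the authors' deposited tables of −2.25 (SE 0.10) and −2.31 (SE 0.13). All 10 macrophage markers looked up were present, with mean normalized counts from 1233 to 259735. In shMOF cells 9 of them were called higher and 0 lower at rest, and 7 higher and 1 lower under LPS, in the authors' deposited tables. The shares over all genes tested were 21.3% higher and 17.8% lower at rest, and 28.1% and 20.0% under LPS. Of neutrophil markers 2 of 9 were in the tables, of dendritic cell markers 1 of 7, of T and NK cell markers 1 of 8, of B cell markers 2 of 6, of mast cell and basophil markers 1 of 6 and of erythroid markers 0 of 6. Fibroblast and stromal markers were there for 6 of 7, with means from 13.7 to 667.4, and progenitor markers for 5 of 6, from 14.9 to 998.2. In the authors' deposited tables, shMOF cells had 3 of the stromal markers higher at rest and 4 under LPS, and 3 and 2 of the progenitor markers lower. The dendritic cell marker and the T and NK cell marker, with means of 43.0 and 50.6, were called higher under LPS alone. Of the 2 B cell markers, with means of 24.2 and 103.8, 1 was called higher at rest and 2 under LPS. Those of neutrophils and of mast cells and basophils were called in neither state. The part of these cell types in the values below was not tested. In bulk RNA, fewer cells of a type and less RNA per cell cannot be told apart.

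The enzymes split by LPS state. In unstimulated shMOF macrophages 7 of the 10 were called lower and 0 higher (Phgdh, Psat1, Shmt1, Shmt2, Mthfd2, Mthfd1l and Gcsh), at an adjusted p below 0.05 in the authors' deposited table. Of all 14264 genes in that comparison 39.1% were called, 21.3% as higher and 17.8% as lower. At LPS 3 h 2 of the 10 were called lower (Gcsh and Amt) and 1 higher (Mthfd2), where 48.0% of 13987 genes were called, 28.1% as higher and 20.0% as lower. The median log2 fold change of the 10 was −0.64 unstimulated and −0.10 at LPS 3 h, beside 0.03 for all genes in each state. The difference of the knockdown effect, LPS 3 h minus unstimulated, was computed from the deposited values for genes whose mean normalized count reached 10. It was called higher for 5 of 9 enzymes and lower for 1, where 30.6% of 12994 genes were called, 18.2% as higher and 12.4% as lower. Because the same comparisons selected the genes, nothing is read from these counts against the shares of all genes. The same shares stand beside the counts of the lists below, and no list was tested against them.

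**Figure D1:**
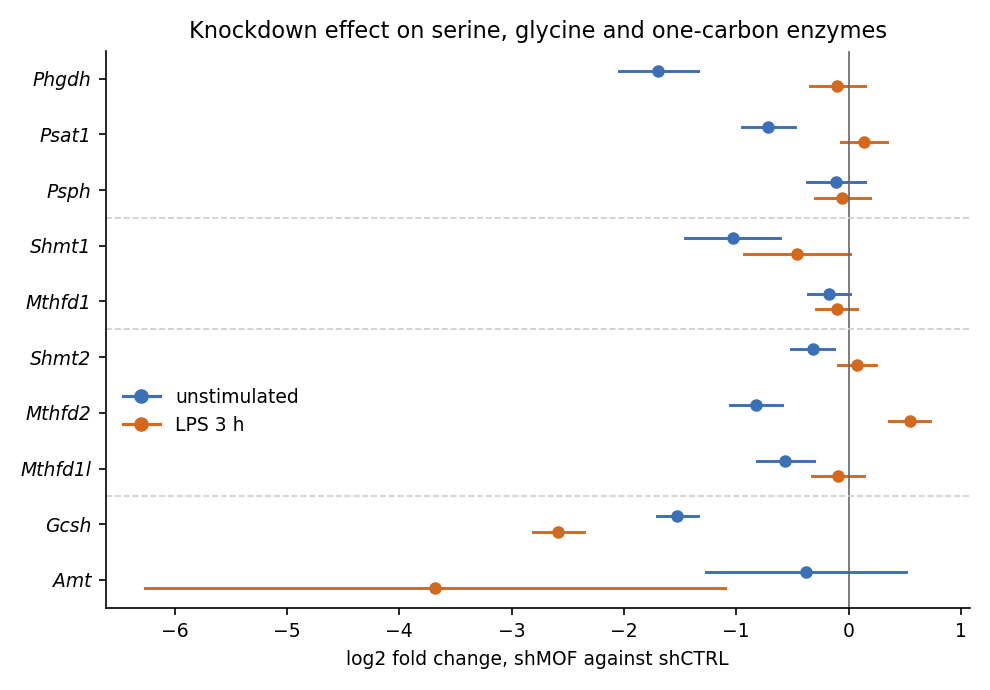
Log2 fold change of shMOF against shCTRL for the 10 enzymes, unstimulated (blue) and at LPS 3 h (orange). Points are the deposited estimates, bars their 95% intervals, and dashed lines separate serine synthesis, cytosolic folate enzymes, mitochondrial folate enzymes and glycine cleavage. Phgdh lies at −1.69 in blue and −0.10 in orange, while Gcsh lies at −1.52 and −2.58.

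Upstream sequence is shown for the 3 genes on which the description turns, Phgdh for its low value at rest, Gcsh for low values in both states and Mthfd2 for its change of sign. Each is read 5′ to 3′ on the minus strand, the gene's own, from the RefSeq table for GRCm38.p6, and stops short of any exon that GENCODE M21 gives the gene. The stretches are chr3:98339991-98340219 for Phgdh, ending 21 bases before the RefSeq start, chr8:116993538-116993748 for Gcsh, ending 39 bases before it, and chr6:83317607-83317854 for Mthfd2, ending 2 bases before it. The Mthfd2 stretch lies within GENCODE's longer model of that gene, outside its exons. Capitals mark CCAAT, the box bound by NF-Y, or its reverse complement. A second match upstream of Phgdh, 23 bases before the start, falls at the end of the stretch and is not shown.
Phgdh: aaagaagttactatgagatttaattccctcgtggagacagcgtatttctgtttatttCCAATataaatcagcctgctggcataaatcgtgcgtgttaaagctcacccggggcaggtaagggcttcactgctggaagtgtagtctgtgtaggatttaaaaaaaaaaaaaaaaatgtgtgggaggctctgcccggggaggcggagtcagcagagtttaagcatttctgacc
Gcsh: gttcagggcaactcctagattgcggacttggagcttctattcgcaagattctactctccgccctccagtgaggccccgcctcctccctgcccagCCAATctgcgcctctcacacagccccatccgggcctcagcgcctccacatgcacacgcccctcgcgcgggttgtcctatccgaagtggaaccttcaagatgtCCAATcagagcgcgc
Mthfd2: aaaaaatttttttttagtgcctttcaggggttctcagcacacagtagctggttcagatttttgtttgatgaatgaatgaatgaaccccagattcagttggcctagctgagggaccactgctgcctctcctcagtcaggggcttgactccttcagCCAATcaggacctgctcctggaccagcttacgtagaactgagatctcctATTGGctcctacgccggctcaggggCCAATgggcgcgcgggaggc
In the 250 bases before the RefSeq start, CCAAT on either strand was found for 8 of the 10 enzymes, all but Shmt2 and Mthfd1l, and in 33.8% of the 32851 windows of the table. Among the 9849 measured genes with a window the share was 40.4%. This motif was looked up after the sequences had been seen, and a match describes letters, not binding. The motif TGATGNAA, the composite element of ATF4 and C/EBP, CACGTG, the E-box, and TTTNGCGC, an E2F element, were each found for 0 of the 10. Their shares over all windows were 3.45%, 6.02% and 1.13%, and among the measured genes with a window 2.51%, 9.88% and 2.37%. A window without these letters says nothing of the factors, whose elements can lie elsewhere. The windows of Phgdh, Gcsh and Mthfd2 had a GC content of 44%, 64.4% and 52.4%, beside a median of 52.4% over all windows.

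The 10 transcripts covered a wide range of levels. On the scale of mean normalized count per kilobase of exon, Gcsh was at 417.9 and Mthfd2 at 402.4, above 78.6% and 77.9% of the measured genes. Shmt2 stood at 248.0 per kilobase, Psat1 at 147.1, Mthfd1 at 144.4 and Phgdh at 109.7. The lower end held Mthfd1l at 67.9, Psph at 29.1, Shmt1 at 15.4 and Amt at 2.89 per kilobase. These means span the groups together, so their order belongs to no single condition, and no spread over libraries is known. Amt, with a mean normalized count of 7.05, is close to the lowest in the tables, 4.33.

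Phgdh encodes phosphoglycerate dehydrogenase, the first enzyme of serine synthesis. The gene lies at chr3:98313170-98339990 (minus strand, GRCm38) and had a mean normalized count of 272.6. Its log2 fold change in the authors' deposited tables was −1.69 (SE 0.18, 95% interval −2.05 to −1.34) unstimulated, which is 0.309 of the control level. At LPS 3 h the deposited value was −0.10 (SE 0.12, −0.34 to 0.14), or 0.933 of control. The transcript was thus far below control at rest and its interval under LPS includes 0. The difference between the states was 1.59 (SE 0.22, 1.17 to 2.02). Among the 10809 genes with a mean of at least 50, Phgdh ranked 121 from the lowest unstimulated. A processed pseudogene, Phgdh-ps1 on chromosome 7, was not among the measured genes, and the sources used here do not say how reads shared with it were assigned.

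Psat1 encodes phosphoserine aminotransferase, the next enzyme, and lies at chr19:15904678-15947337 (minus strand). Its deposited log2 fold change in the authors' tables was −0.72 (SE 0.12, −0.95 to −0.48) unstimulated, 0.609 of control, and 0.13 (SE 0.10, −0.07 to 0.34) at LPS 3 h, 1.10 of control. Psat1 followed the order of Phgdh, low at rest and near control under LPS, at a smaller size, and the difference was 0.85 (SE 0.16). Psph, the phosphatase that releases serine, lies at chr5:129765558-129787449 (minus strand) and had −0.11 (SE 0.13) and −0.06 (SE 0.12) in the authors' deposited tables. Both intervals of Psph include 0, from −0.37 to 0.15 and from −0.30 to 0.19. Listed in the order of the reactions, the 3 steps had unstimulated values of 0.309, 0.609 and 0.924 of control. At LPS 3 h they had 0.933, 1.10 and 0.962. A trend along the pathway was not tested. Psph, with a mean normalized count of 126.1, shares 452 bases on the opposite strand with Cct6a, whose mean was 5343. The sources used here do not say whether counting used strand.

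The mitochondrial folate enzymes of the set, Mthfd2, Shmt2 and Mthfd1l, were lower at rest, and Mthfd2 changed sign under LPS. Mthfd2 encodes the dehydrogenase and cyclohydrolase of the mitochondrial branch, lies at chr6:83305691-83325908 (minus strand), and had the highest mean normalized count of the 10, 1403. The authors' deposited tables give −0.82 (SE 0.12, −1.06 to −0.59) unstimulated and 0.54 (SE 0.09, 0.36 to 0.73) at LPS 3 h. In linear terms the transcript was at 0.565 of control at rest and at 1.46 of control under LPS, the only 1 of the 10 called in opposite directions. The difference was 1.37 (SE 0.15, 1.07 to 1.66). A short gene model, Gm43890, overlaps Mthfd2 by 2799 bases on the same strand, and its own mean normalized count was 10.8.

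Shmt2, the mitochondrial serine hydroxymethyltransferase at chr10:127517123-127522444 (minus strand), had deposited values by the authors of −0.32 (SE 0.10) at rest and 0.07 (SE 0.09) under LPS, which is 0.802 and 1.05 of control. Mthfd1l, the formate-releasing synthetase at chr10:3973118-4167081 (plus strand), had −0.56 (SE 0.13) and −0.10 (SE 0.12) in the same authors' deposited tables, or 0.678 and 0.935 of control. Both were below control at rest, and their intervals under LPS include 0. The differences between states were 0.39 (SE 0.13) for Shmt2 and 0.46 (SE 0.17) for Mthfd1l. Each was called at 0.05 and lost at a threshold of 0.01. Outside the set, and named after their values were seen, Aldh1l2, the mitochondrial 10-formyltetrahydrofolate dehydrogenase, was called higher at rest, at 1.19 (SE 0.35) against 0.38 (SE 0.27) under LPS in the authors' deposited tables. Mthfd2l, a relative of Mthfd2, was called lower at rest, at −0.31 (SE 0.13), and had −0.23 (SE 0.13) under LPS.

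Of the cytosolic pair, Shmt1 was low at rest and Mthfd1 stayed near control. Shmt1, the cytosolic serine hydroxymethyltransferase at chr11:60788104-60811718 (minus strand), was scarce, with a mean normalized count of 59.7. Its log2 fold change in the authors' deposited tables was −1.03 (SE 0.22) unstimulated and −0.46 (SE 0.24, −0.93 to 0.02) at LPS 3 h, or 0.489 and 0.729 of control. The difference of 0.58 (SE 0.32, −0.06 to 1.21) has an interval that includes 0. Mthfd1, the trifunctional cytosolic synthase at chr12:76255298-76319803 (plus strand), had −0.17 (SE 0.09, −0.36 to 0.01) and −0.10 (SE 0.09, −0.29 to 0.08) in the authors' deposited tables. Mthfd1 was not called in either state. Shmt1 overlaps Smcr8 by 184 bases on the opposite strand, a gene with a mean normalized count of 4655.

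Gcsh went the other way from Phgdh, low at rest and lower still under LPS. The gene lies at chr8:116981810-116993537 (minus strand), with a mean normalized count of 659.8. The authors' deposited tables give −1.52 (SE 0.09, −1.71 to −1.34) unstimulated and −2.58 (SE 0.12, −2.81 to −2.36) at LPS 3 h. The level was 0.347 of control at rest (0.306 to 0.395) and 0.167 of control under LPS (0.143 to 0.195). Among genes with a mean of at least 50, Gcsh ranked 150 from the lowest unstimulated and 2 from the lowest at LPS 3 h. The difference between states was −1.06 (SE 0.15, −1.35 to −0.77), of opposite sign to that of the 5 enzymes called higher.

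**Figure D2:**
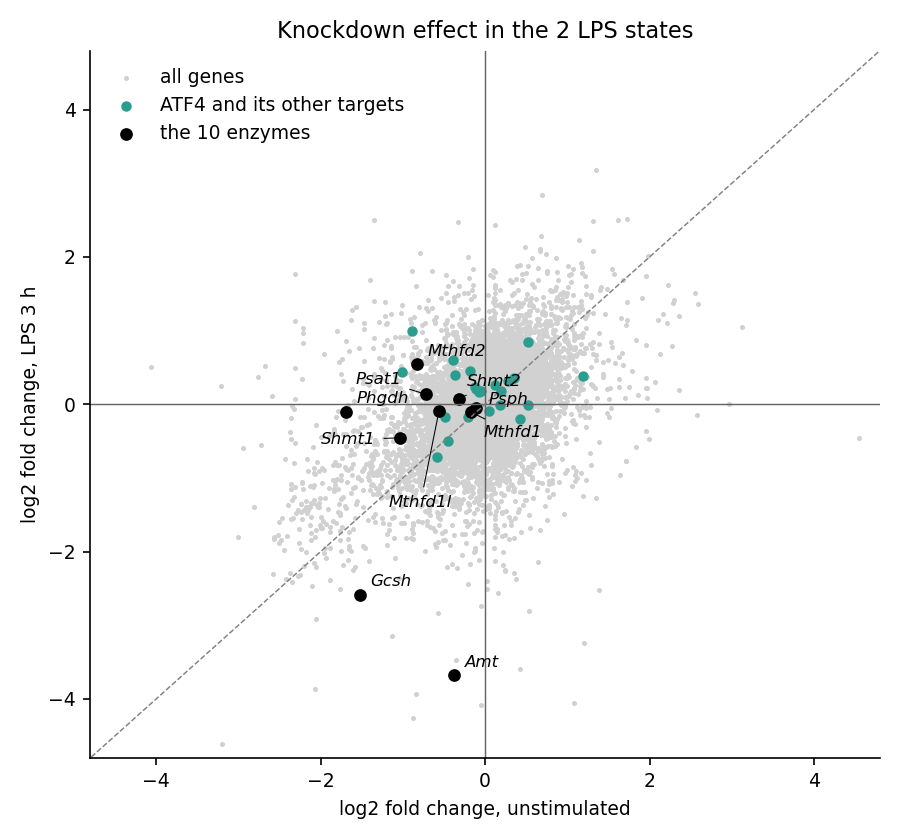
Log2 fold change of shMOF against shCTRL at LPS 3 h (vertical) against unstimulated (horizontal) for all genes in grey, ATF4 and its other targets in green and the 10 enzymes in black. The dashed line marks equal values. Gcsh lies below the line, at −1.52 and −2.58, and Mthfd2 and Phgdh above it, at −0.82 and 0.54 and at −1.69 and −0.10.

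Amt had the widest error of the 10. The gene lies at chr9:108296853-108302302 (plus strand). Its log2 fold change in the authors' deposited tables was −0.38 (SE 0.45, −1.26 to 0.51) unstimulated and −3.68 (SE 1.32, −6.26 to −1.10) at LPS 3 h. The LPS interval spans 0.0130 to 0.468 of control, and the call was lost at a threshold of 0.01. With a mean under 10 the gene was left out of the test between states. Gldc, the glycine decarboxylase of the same system, is also near the lower end of the tables, with a mean normalized count of 7.94. It had −0.88 (SE 0.45) and −4.26 (SE 1.24, −6.70 to −1.83) in the authors' deposited tables, with DESeq2 adjusted p of 0.109 and 0.0018.

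The other well-measured genes of glycine cleavage and lipoate attachment lay closer to 0 than Gcsh. Of its 14 genes beside Gcsh and Amt, 2 were called higher and 5 lower unstimulated, and 3 higher and 5 lower at LPS 3 h, in the authors' deposited tables. Their median log2 fold changes were −0.16 and −0.02. Dld, the dihydrolipoamide dehydrogenase that glycine cleavage shares with the 2-oxoacid dehydrogenases, had −0.20 (SE 0.04) at rest and 0.19 (SE 0.03) under LPS in the authors' deposited tables. Lias, which makes lipoate from the octanoyl group, had −0.04 (SE 0.07) and −0.37 (SE 0.08) there. The lipoyl transferases Lipt1 and Lipt2 were not called in either state, with deposited values by the authors of −0.24 and −0.05 unstimulated and −0.38 and −0.02 at LPS 3 h.

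Among the complexes that carry lipoate as Gcsh does, Dlat, the acetyltransferase core of pyruvate dehydrogenase, fell in both states, at −0.41 (SE 0.05) each time in the authors' deposited tables. Pdhb, a subunit of its first component, had −0.38 (SE 0.06) and −0.20 (SE 0.05), and Ogdh, of oxoglutarate dehydrogenase, −0.22 (SE 0.05) and −0.40 (SE 0.05) in those tables. Pdhx was lower at rest alone, at −0.17 (SE 0.07) against 0.09 (SE 0.06) under LPS. The branched-chain genes Bckdha, at 0.32 in both states, and Dbt, at 0.39 and 0.07, were higher at rest, and Dbt was not called under LPS. Dlst, the oxoglutarate core, was called under LPS at 0.10 (SE 0.04), while Pdha1 and Bckdhb were called in neither state. Within this list the values of the well-measured genes other than Gcsh lay between −0.41 and 0.39.

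**Figure D3:**
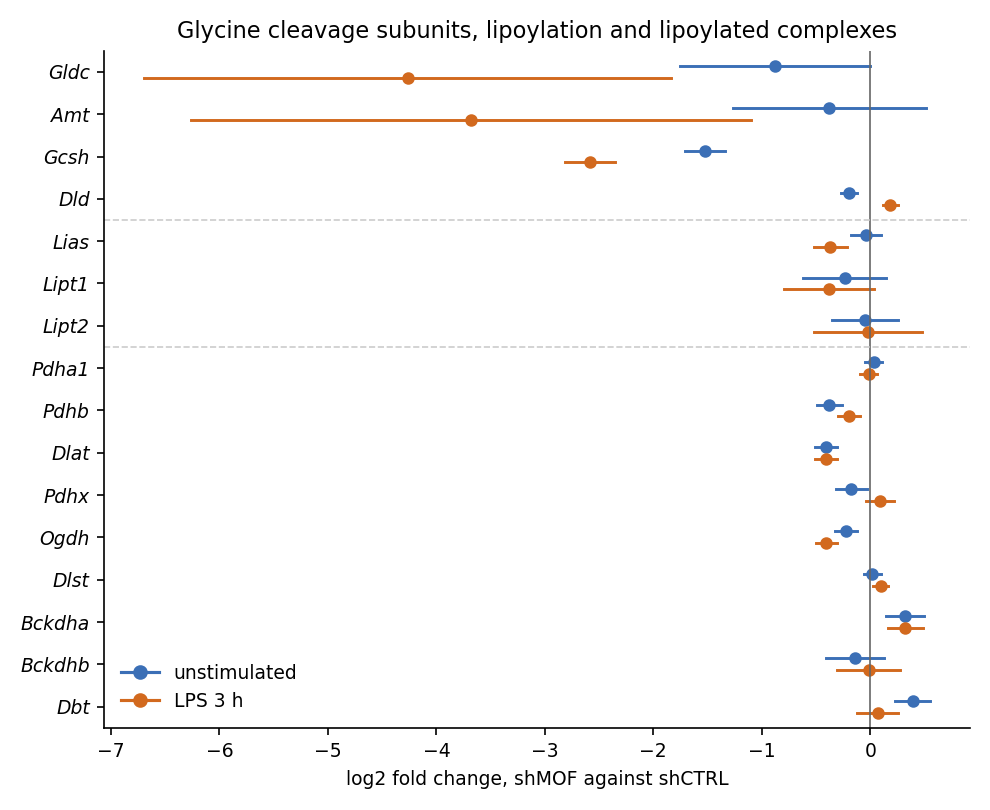
Log2 fold change of shMOF against shCTRL for the subunits of glycine cleavage (top), lipoate synthesis and transfer (middle) and other lipoate-bearing complexes (bottom), unstimulated in blue and at LPS 3 h in orange, with 95% intervals. Gcsh stands at −1.52 and −2.58 with narrow bars, Gldc and Amt have wide bars at LPS 3 h, and Dld stands at −0.20 and 0.19.

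Neither Phgdh nor Gcsh shared its values with the genes beside it. The nearest measured genes to Phgdh were Notch2, 162808 bases away, with 0.27 (SE 0.08) and 0.86 (SE 0.08) in the authors' deposited tables, and Zfp697, 42470 bases away, with 0.07 (SE 0.19) and 0.87 (SE 0.12). Those of Gcsh were 1700030J22Rik, 2850 bases away, with 0.69 (SE 0.24) and −0.32 (SE 0.33), and Pkd1l2, 2141 bases away, with −0.02 (SE 0.15) and 0.26 (SE 0.18) in those tables. None of the 4 was called lower in either state.

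**Figure D4:**
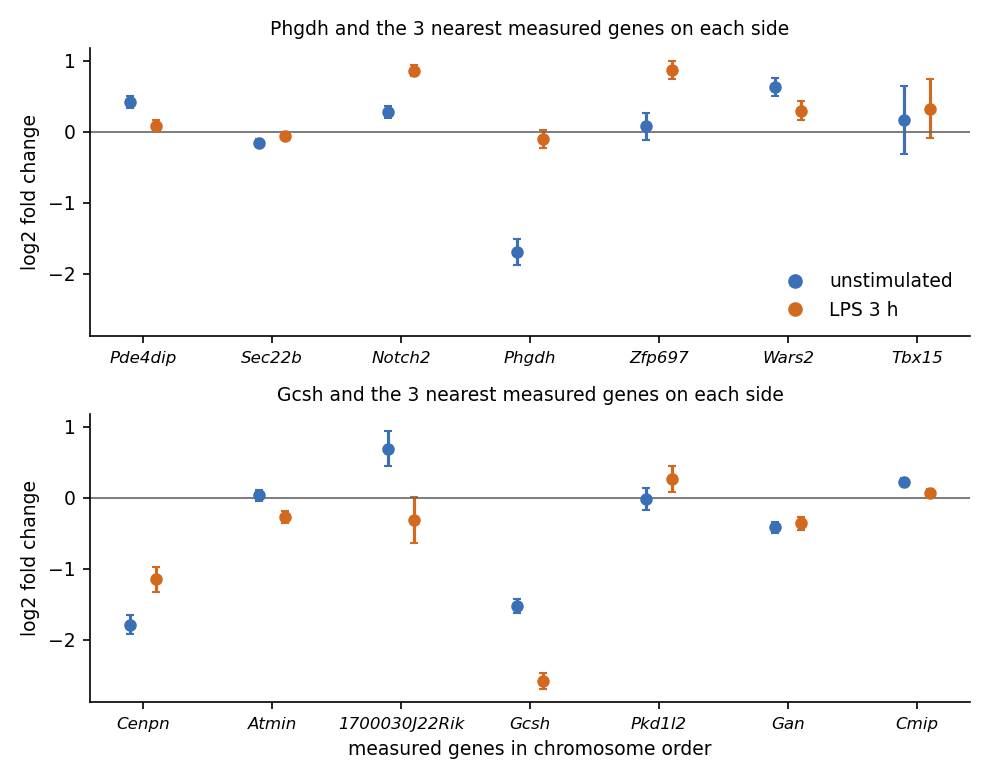
Log2 fold change of shMOF against shCTRL for Phgdh (top) and Gcsh (bottom) and the 3 nearest measured genes on each side, in chromosome order, unstimulated in blue and at LPS 3 h in orange, with bars of 1 SE. Phgdh and Gcsh stand below their immediate neighbours, and the third gene on one side of Gcsh, Cenpn, is also low, at −1.79 and −1.15.

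The genes whose pair of log2 fold changes lay closest to that of Phgdh, by Euclidean distance over the 2 states among 10167 genes, were Melk at 0.12, Ccne1 at 0.17, Mboat1 at 0.27 and Hmgb3 at 0.27. Melk had −1.70 and −0.21 in the authors' deposited tables and Ccne1, cyclin E1, −1.59 and 0.04. For Gcsh they were Ticrr at 0.25, Kif18a at 0.41, Aldh6a1 at 0.47 and Brca1 at 0.49. Ticrr had −1.76 and −2.51 in the authors' deposited tables and Aldh6a1, a mitochondrial dehydrogenase of valine breakdown, −1.41 and −2.12. Kif18a had −1.89 (SE 0.21) and −2.39 (SE 0.41) there, and Brca1 −1.67 (SE 0.11) and −2.11 (SE 0.15). With 2 values per gene this likeness is a description of these libraries.

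Most genes of purine synthesis, which uses one-carbon units, were lower at rest. Of 13 purine synthesis genes 11 were called lower and 0 higher unstimulated, with a median of −0.31, and 5 lower and 1 higher at LPS 3 h, with a median of −0.10, in the authors' deposited tables. The early enzymes Gart and Pfas, which catalyse folate-dependent and glutamine-dependent steps respectively, fell in both states, with −0.39 and −0.42 for Gart and −0.46 and −0.63 for Pfas in those tables. Adssl1, which leads towards AMP, had −0.41 (SE 0.07) and −0.76 (SE 0.07). Its relative Adss had −0.31 (SE 0.08) and 0.27 (SE 0.07), a change of sign like that of Mthfd2. Paics and Gmps were lower at rest, at −0.38 and −0.37, and not called under LPS, at −0.06 and −0.10.

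Of 16 other genes of the folate cycle and folate transport, 5 were called higher and 3 lower unstimulated, and 5 higher and 4 lower at LPS 3 h, with medians of −0.08 and −0.10 in the authors' deposited tables. Of all genes tested, 39.1% were called at rest and 48.0% at LPS 3 h. Tyms, thymidylate synthase, fell to −1.37 (SE 0.11) at rest and −0.83 (SE 0.11) under LPS. The folate receptor Folr2 rose in both states, at 0.28 and 0.46 in the authors' deposited tables. Mthfs was called under LPS alone, at 0.41 (SE 0.09) against −0.05 (SE 0.09). Aldh1l1, which oxidises 10-formyltetrahydrofolate, was called at rest, at 0.52 (SE 0.12), and not under LPS, at 0.25 (SE 0.12).

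In transsulfuration and glutathione synthesis 2 of 12 genes were called higher and 5 lower unstimulated, and 5 higher and 2 lower at LPS 3 h, with medians of −0.32 and 0.12 in the authors' deposited tables. Slc7a11, the cystine importer, had −0.39 (SE 0.15) at rest and 0.60 (SE 0.11) under LPS, and Chac1, which degrades glutathione, −0.89 (SE 0.35) and 0.998 (SE 0.20). Both were called in opposite directions in the 2 states at 0.05. At a threshold of 0.01 the calls of both at rest were lost, and the list's count at rest went from 7 to 3, with 1 higher and 2 lower. Gclc and Gclm, the subunits of glutamate-cysteine ligase, were lower in both states, at −0.52 and −0.36 for Gclc and −0.33 and −0.44 for Gclm in the authors' deposited tables. Csad, of taurine synthesis, was higher in both, at 0.74 and 0.38.

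ATF4 is the transcription factor best known for raising Phgdh, Psat1, Psph, Shmt2 and Mthfd2 when amino acids are short. Of 23 genes for ATF4 itself and its other targets, 9 were called higher and 8 lower unstimulated, and 12 higher and 4 lower at LPS 3 h, with medians of −0.08 and 0.21 in the authors' deposited tables. Lists can share genes, and Slc7a11, Chac1 and Aldh1l2 are counted here and in a list above. With fold changes centred on their median the split at rest was 8 higher and 9 lower. Atf4 itself, chosen after its values were seen, had −0.11 (SE 0.06) at rest and 0.21 (SE 0.06) under LPS. Slc7a5, a large neutral amino acid transporter, had −1.01 (SE 0.17) and 0.44 (SE 0.12), close to the pair of values of Mthfd2. Its partner chain Slc3a2 was lower in both states, at −0.59 and −0.72, as were the aminoacyl-tRNA synthetases Sars, at −0.45 and −0.50, and Gars, at −0.49 and −0.17. Nupr1 was higher in both, at 0.52 and 0.85 in the authors' deposited tables.

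**Figure D5:**
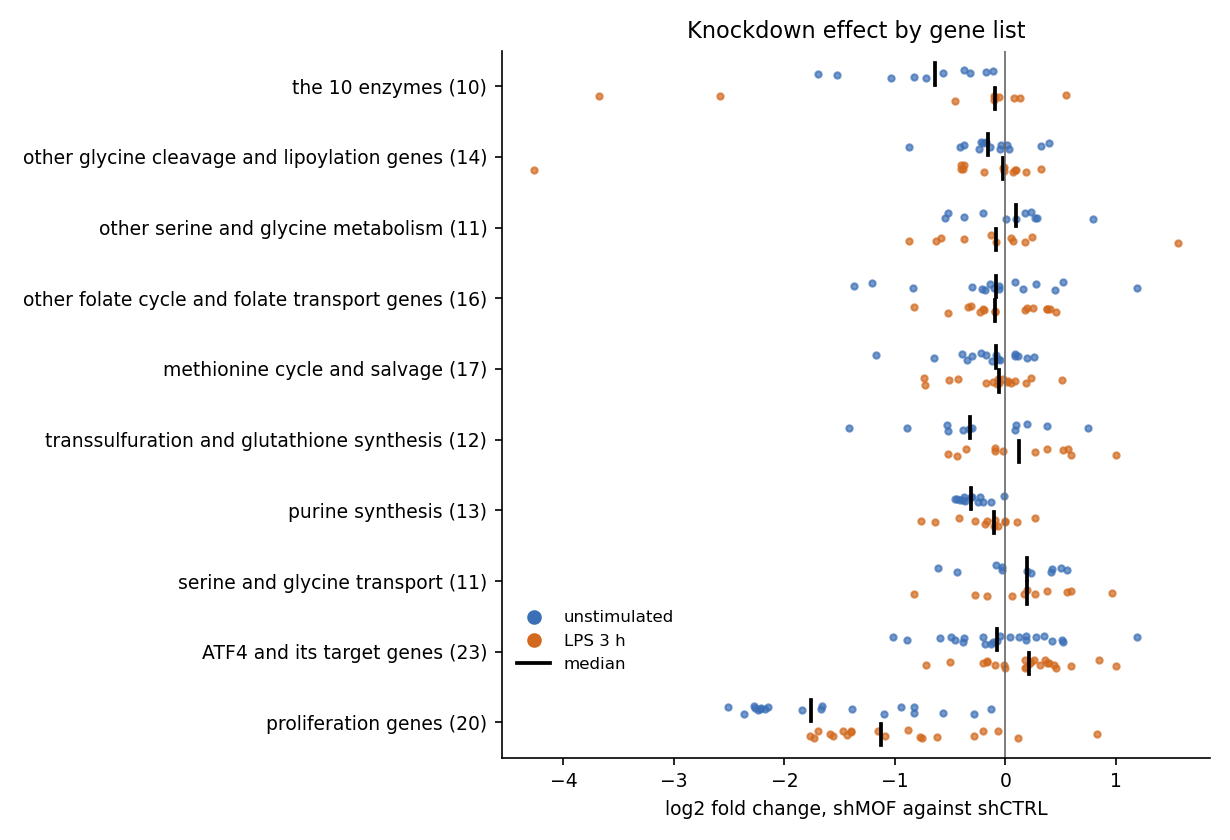
Log2 fold change of shMOF against shCTRL for each gene of the 10 enzymes and of 9 lists without them, unstimulated in blue and at LPS 3 h in orange, with the number of genes found in brackets and black bars at the medians. A gene that stands in several lists, such as Slc7a11, is drawn in each. The median of the 10 enzymes is −0.64 unstimulated and −0.10 at LPS 3 h, that of purine synthesis −0.31 and −0.10, and that of proliferation genes −1.76 and −1.12.

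Most proliferation genes were lower in both states. Of 20, 18 were called lower and 0 higher unstimulated, with a median of −1.76, and 17 lower and 1 higher at LPS 3 h, with a median of −1.12, in the authors' deposited tables. The difference between states was called higher for 14 of the 20 and lower for 0, with a median of 0.55. Over all genes tested for it, 18.2% were called higher and 12.4% lower. For ATF4 and its other targets it was called higher for 9 of 23 and lower for 3. For the metabolic lists together it was called higher for 18 of 92 genes and lower for 11. Ticrr, Kif18a and Brca1 are outside the proliferation list. They were picked above for their nearness to Gcsh, so their lower values under LPS than at rest largely follow from that choice. The part of proliferation genes in the values of Phgdh, Gcsh, Tyms and the purine genes was not tested.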

How the data were processed

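RNA was sequenced from 12 libraries in 4 groups of 3. Per the labels' protocol, libraries were stranded, from mRNA, and paired-end with reads of 100 bases. DESeq2 (without a version) and mm10 are named in the submitters' processing notes. The aligner, the counter and the use of strand are not given in the sources analysed. For 2 comparisons the authors deposited, per the file headers, a signal per gene that is a mean normalized count, a log2 fold change with its SE, a Wald score, and p-values raw and adjusted. These values were taken unchanged. A gene was called at an adjusted p below 0.05, whatever its fold.

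Intervals of 95% and linear folds were computed from the deposited values. The difference between states was divided by the root of the summed squared SE (errors taken as uncorrelated), which gave two-sided p-values from the normal distribution, adjusted by Benjamini-Hochberg over the 12994 genes whose mean reached 10. This test was run on simulated data with independent normal errors of the deposited SE. Such data share the assumptions of the test, so they cannot show whether these hold. The enzymes and all lists were chosen with earlier results of these data known.

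Named genes were the 10 enzymes, Kat8, up to 5 genes per list and comparison with the smallest deposited p past the threshold (some are not reported here), the whole glycine cleavage list, the nearest measured neighbours of Phgdh and Gcsh, and their 4 closest genes by fold changes. Coordinates are from GENCODE M21, sequences from RefSeq. Alternatives were a threshold of 0.01, adjustment over genes with a mean of at least 50, no filter on the mean, median-centred fold changes, a minimum log2 change of 1 and an SE of the difference enlarged 1.5 times. A comparison of the proteins is not analysed here. Python 3.11.15, numpy 2.4.6, scipy 1.17.1, pandas 2.3.3 and matplotlib 3.10.9 were used.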

Additional observations from a re-analysis of the deposited data

Results flagged for a closer look

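The difference of the deposited log2 fold changes between LPS 3 h and unstimulated cells had a Benjamini-Hochberg adjusted p below 0.05 for the genes given here. Values are LPS 3 h minus unstimulated on the log2 scale. The set was chosen because Phgdh and Gcsh were low in different LPS states, so for the enzymes themselves these are descriptions that reuse the values behind the choice, and no independent evidence of a difference. Their differences were 1.59 for Phgdh, 0.85 for Psat1, 1.37 for Mthfd2, 0.39 for Shmt2, 0.46 for Mthfd1l and −1.06 for Gcsh.

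Around glycine cleavage, Dld differed by 0.39 and Pdhx by 0.26, while Lias differed by −0.33, Dbt by −0.32 and Ogdh by −0.18. In the folate cycle the differences were 0.54 for Tyms and 0.46 for Mthfs. In purine synthesis they were 0.57 for Adss, 0.31 for Paics and 0.27 for Gmps, with Adssl1 at −0.36. Of methionine genes, Sms stood at 0.70, Ahcy at 0.27 and Ahcyl2 at 0.25, with Mtrr at −0.39, Adi1 at −0.34 and Mat2b at −0.31. Chac1 had 1.89 and Slc7a11 0.98. Among transporters Slc38a2 had 1.002 and Slc1a4 0.73, with Slc36a1 at −0.49 and Slc36a4 at −0.22. Of ATF4 targets Slc7a5 had 1.45, Nupr1 0.33 and Gars 0.32, and Atf4 itself 0.32. Gatm, of creatine synthesis, had 0.24.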

How the results depend on the processing

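No paired analysis was possible because the tables hold no values per library, and for the same reason no library could be left out. With a minimum log2 change of 1, the enzymes called unstimulated went from 7 to 3, the other pathway genes called unstimulated from 53 to 3 and those called at LPS 3 h from 49 to 2, by construction of the minimum. Of the 92 other pathway genes tested, 29 had a different effect at LPS 3 h, 18 at a threshold of 0.01 and 10 with the SE of the difference enlarged 1.5 times, both stricter by construction. The other 19 recomputed counts for the enzymes and for the other pathway genes together stayed within 1.5 times of the value given. These totals do not follow which genes are called. Enzymes called at LPS 3 h went from 1 higher and 2 lower to 0 and 2 with the minimum change. Adjusted over genes with a mean of at least 50 they were 1 and 1. Enzymes with a different effect at LPS 3 h went from 6 to 4 at a threshold of 0.01 and with the enlarged SE. For single lists 31 recomputed counts moved further, 17 of them under the minimum log2 change of 1, 8 with the enlarged SE and 6 at a threshold of 0.01. At that threshold calls at rest went from 7 to 3 in transsulfuration and from 8 to 5 in the methionine list, and called differences from 5 to 2 around glycine cleavage. With the minimum change, proliferation genes called at LPS 3 h went from 18 to 11. The log2 fold changes of the enzymes kept their sign under the alternatives run, which could not have changed it. A threshold of 0.01 leaves the values as they are, and centring shifted them by 0.03 in each state. Centring turned the split of ATF4 and its targets at rest from 9 higher and 8 lower to 8 and 9. At a threshold of 0.01 the calls of Amt at LPS 3 h and of the differences of Shmt2 and Mthfd1l were lost, as were those of Slc7a11, Chac1, Pdhx and Mthfd2l at rest and of Dlst and Gars at LPS 3 h. The flagged differences of Dbt, Ogdh, Pdhx, Gmps, Ahcy, Adi1, Gatm, Slc1a4 and Slc36a4 were lost at that threshold too. Depth per library is unknown, and precision is known only through the deposited SE, whose medians were 0.0862 at rest and 0.0852 under LPS.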

Other observations

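Methionine metabolism, which takes one-carbon units from folate, was mixed. Of 17 genes of the methionine cycle and salvage, 3 were called higher and 5 lower unstimulated in the authors' deposited tables. At LPS 3 h 16 of them had an adjusted p, with 2 called higher and 4 lower. Of all genes tested, 39.1% were called at rest and 48.0% at LPS 3 h. Sms, spermine synthase, had −0.65 (SE 0.10) at rest and 0.05 (SE 0.09) under LPS, an order like that of Psat1. Adi1, of methionine salvage, fell in both states, at −0.39 and −0.73 in the authors' deposited tables, and Mtrr, which reactivates methionine synthase, under LPS alone, at −0.12 and −0.51. Ahcyl2 was higher in both, at 0.26 and 0.51.

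Transporters of serine and glycine also moved in both directions. Of 11 measured, 3 were called higher and 2 lower unstimulated, and 5 higher and 2 lower at LPS 3 h, in the authors' deposited tables. Of all genes tested, 39.1% were called at rest and 48.0% at LPS 3 h. Slc38a2, a sodium-coupled neutral amino acid transporter, had −0.44 (SE 0.08) at rest and 0.56 (SE 0.07) under LPS, a change of sign as in Mthfd2. Slc1a4, which carries serine, had 0.23 (SE 0.24) and 0.97 (SE 0.17), and the mitochondrial sideroflexin Sfxn3 was higher in both states, at 0.50 and 0.59. Slc36a4 was lower in both, at −0.61 and −0.83, and Slc36a1 was higher at rest, at 0.56, and not called under LPS, at 0.06. Of 11 other genes of serine and glycine metabolism, 3 were higher and 4 lower unstimulated, and 3 higher and 3 lower at LPS 3 h, in the authors' deposited tables. Gcat, a mitochondrial enzyme that makes glycine from threonine carbon, was lower in both, at −0.55 and −0.58. Grhpr, at −0.52 and −0.87, and serine racemase Srr, at −0.20 and −0.38, were lower in both as well.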
